A study of Mus musculus with 16 samples.

Results

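The protocadherin genes were described here in motoneurons of mice with and without Hnrnpr, separated into somatodendritic and axonal compartments. The members are the genes annotated as protein coding whose symbol begins with Pcdh, which gave 69 of the 46320 genes in the table. They comprise 14 alpha, 22 beta and 21 gamma genes of the clustered group and 12 nonclustered genes. All but Pcdhb1 passed the filter on low counts, so 68 were tested. The cells were primary motoneurons taken at embryonic day 13 from lumbar spinal cords, enriched by panning on the p75 neurotrophin receptor and grown in microfluidic chambers. Both genotypes received CNTF at 5 ng/ml on both sides of the chamber and BDNF at 20 ng/ml on the axonal side. Hnrnpr-/- mice carry a constitutive deletion of the first exons of Hnrnpr, made by CRISPR/Cas9 and backcrossed on C57Bl/6, and +/+ mice served as controls. RNA from each side was sequenced in 4 libraries for each of the 4 groups. The labels do not say how many animals stand behind a library, so the p-values measure the spread between these libraries.

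Protocadherins are the largest family of cadherin-type adhesion proteins, with extracellular cadherin repeats, a membrane segment and a cytoplasmic tail. In the alpha and gamma clusters each gene has its own large variable exon, with its own promoter, that is spliced to constant exons shared by the whole cluster. The combination of clustered isoforms on a neuron serves self-recognition of its branches. Beta genes lack constant exons, and the nonclustered delta protocadherins are separate genes that act in axon growth, sorting and synapse formation.

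In the GRCm39 build the alpha genes span 37063338 to 37321950 of chromosome 18, the beta genes 37398051 to 37654472 and the gamma genes 37794828 to 37974926. In the GENCODE annotation of that build, 2860 exon bases in 3 blocks are shared by all 14 alpha genes. Likewise 2207 bases in 3 blocks are shared by all 21 gamma genes, and 0 bases are shared by all 22 beta genes. The authors divided a read among all genes it overlapped, so a read on a constant exon entered every gene of its cluster as a fraction. Accordingly 96.9% of the alpha values above 0 and 99.7% of the gamma values were not whole numbers (tolerance 0.004). The share was 43.5% for beta genes, 31.7% for nonclustered genes and 39.1% over all genes. Members of the alpha and gamma clusters therefore share reads and are not independent measurements.

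Library totals ran from 22024636 to 34863923 counts. Hnrnpr, the deleted gene, was at 204 ± 27.1 CPM (counts relative to the TMM-scaled library size; SD, n = 4) in +/+ somata and 0.861 ± 0.305 CPM in Hnrnpr-/- somata. In axons it was at 212 ± 141 CPM and 0.876 ± 0.222 CPM. The summed level of 7 motoneuron markers was 13.05 to 29.9 CPM in +/+ somata and 3.90 to 16.4 CPM in +/+ axons, and 2 of the 5 that were tested were lower in axons of each genotype. In +/+ somata Slc18a3, the vesicular acetylcholine transporter, was the highest at a mean of 8.05 CPM, Chat, the enzyme of acetylcholine synthesis, was at 0.899 CPM, and Mnx1 was at 0 in all 4 libraries. The summed level of 6 astrocyte and radial glia markers was 971 to 1350 CPM in +/+ somata and 1962 to 4703 CPM in +/+ axons, and 4 of the 6 were higher in axons. In Hnrnpr-/- it was 903 to 2008 CPM and 1901 to 3758 CPM, which overlapped, and 2 of the 6 were higher. The summed level of 5 pericyte and smooth muscle markers was 27.2 to 381 CPM and 985 to 9861 CPM in +/+, and 44.1 to 236 CPM and 1807 to 8829 CPM in Hnrnpr-/-, with 2 of the 5 higher in each. The part of these cells in the results below was not tested. In such samples, fewer cells of a type and less RNA per cell cannot be told apart. The axonal libraries numbered 3 of both genotypes stood apart, with the highest pericyte and smooth muscle sums of their groups.

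Most protocadherin genes were lower in axons than in somata. In +/+ motoneurons 59 of the 68 tested members were lower and 0 were higher at an adjusted p under 0.05, where 27.4% of all tested genes were lower and 30.1% higher. The lower members were 14 of 14 alpha, 17 of 21 beta, 20 of 21 gamma and 8 of 12 nonclustered genes. The median log2 fold change was -2.16 for alpha, -1.99 for beta, -0.89 for gamma and -1.65 for nonclustered genes, beside 0.07 over all tested genes. In Hnrnpr-/- motoneurons, 59 members were again lower and 0 higher, where 26.8% of all genes were lower and 27.5% higher. They were 14 alpha, 19 beta, 19 gamma and 7 nonclustered genes. The lists of the 2 genotypes shared 56 members, 94.9% of each. Without both axonal libraries numbered 3, the counts were 58 and 58.

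**Figure D1:**
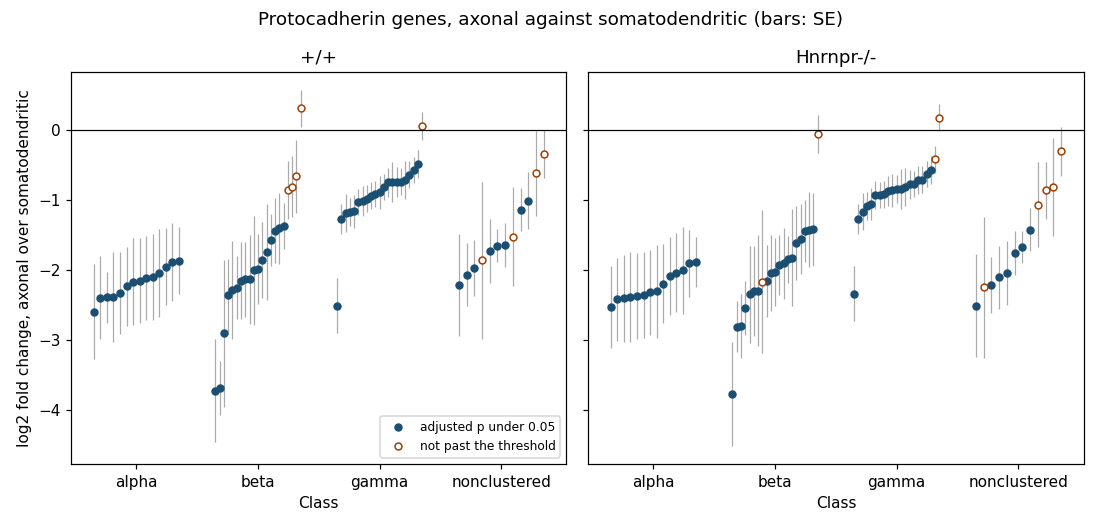
Log2 fold change of axonal over somatodendritic level (vertical axis) for each tested protocadherin gene, sorted within its class (horizontal axis), in +/+ (left) and Hnrnpr-/- (right) motoneurons; bars are standard errors, filled points passed an adjusted p of 0.05 and open points did not. All 14 alpha genes lie below 0 in both genotypes, and the gamma genes other than Pcdhgc4 lie nearer to 0 than the alpha genes.

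Since a read on a constant exon supports the cluster and not a single gene, the alpha genes and the gamma genes were also each summed to 1 feature. The alpha cluster then fell by 2.23 on the log2 scale in +/+ axons (SE 0.52, adjusted p = 0.00232) and by 2.18 in Hnrnpr-/- axons (adjusted p = 0.00297). The gamma cluster fell by 1.03 (SE 0.21, adjusted p = 0.000841) and by 0.95 (adjusted p = 0.0016). Counted this way, 27 of 35 features were lower in +/+ axons and 28 of 35 in Hnrnpr-/- axons.

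Among the delta-1 genes, whose tails carry a motif that binds protein phosphatase 1, Pcdh7, Pcdh9 and Pcdh11x were lower in axons of both genotypes. Pcdh11x, an X-linked gene on chromosome X at 119199954 to 119820319, had 223, 270, 196 and 170 CPM in the +/+ somata. Its +/+ axons had 37.6, 95.5, 9.1 and 42.9 CPM. The compartments did not overlap, and the axonal library numbered 3 was the lowest. The log2 fold change was -2.21 (SE 0.73, adjusted p = 0.0179) in +/+ and -2.51 (SE 0.74, adjusted p = 0.0104) in Hnrnpr-/-. Without the +/+ axonal library numbered 2, the +/+ value was -2.85. Pcdh9, which is expressed widely in the developing nervous system, was at 336 to 402 CPM in +/+ somata and 47.2 to 187 CPM in +/+ axons. It fell by 1.73 on the log2 scale (SE 0.45, adjusted p = 0.00479). Pcdh7 was at 188 to 232 CPM and 56.2 to 85.0 CPM and fell by 1.65 (SE 0.23, adjusted p = 8.1e-05). Pcdh1 was at 21.6 to 31.4 CPM in +/+ somata and 6.27 to 18.3 CPM in +/+ axons. Its log2 fold change of -1.01 (SE 0.41) was close to the threshold, with an adjusted p of 0.047 that no longer passed under 18 other settings, and of 0.0876 in Hnrnpr-/-. With each culture as a block, the Hnrnpr-/- value passed (log2 fold change -1.08, adjusted p = 0.0392).

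Of the delta-2 genes, whose tails can recruit the WAVE complex that drives actin branching, Pcdh8, Pcdh10, Pcdh17 and Pcdh19 were lower in axons of both genotypes and Pcdh18 was not past the threshold in either. Pcdh8, also called arcadlin, had 191, 185, 165 and 113 CPM in +/+ somata and 44.0, 50.4, 23.4 and 38.1 CPM in +/+ axons. The groups did not overlap, and the log2 fold change was -2.07 (SE 0.45, adjusted p = 0.00145). Pcdh17 was at 186 to 231 CPM and 21.5 to 83.3 CPM and fell by 1.97 on the log2 scale (SE 0.40). Pcdh19, the gene of an X-linked epilepsy, was at 129 to 169 CPM and 30.4 to 81.5 CPM and fell by 1.64 (SE 0.31). Pcdh10 was at 50.02 to 60.6 CPM and 13.2 to 40.9 CPM and fell by 1.14 (SE 0.31). Pcdh18 had 71.2, 71.2, 65.0 and 55.9 CPM in +/+ somata and 55.2, 21.9, 39.8 and 90.6 CPM in +/+ axons. Its compartments overlapped, and its log2 fold change was -0.34 (SE 0.35, adjusted p = 0.415).

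The other nonclustered genes, Pcdh12, Pcdh15 and Pcdh20, were low and did not pass the threshold in either genotype. Pcdh20 was at 14.6 to 20.9 CPM in +/+ somata and 3.31 to 11.1 CPM in +/+ axons, which did not overlap, with an adjusted p of 0.0782. Pcdh15, a component of the tip link of inner ear hair cells, was at 9.2 to 18.3 CPM and 2.79 to 19.4 CPM. In Hnrnpr-/- its log2 fold change was -1.07 (adjusted p = 0.151), and with each culture as a block -1.47 (adjusted p = 0.0279). Pcdh12, known from endothelial cells, was at 0.05 to 0.42 CPM and 0 to 0.23 CPM. Pcdh12 overlaps Rnf14 on the opposite strand, which had a mean of 13255 counts. Pcdh12 itself had at most 36 counts in any library. The overlap is of gene spans, and overlap of exons was not examined. The kit does not mark strand, so reads where exons of such a pair overlap cannot be told apart. Other nonclustered genes also overlap genes on the opposite strand, such as Pcdh8 (Gm9748, mean 148 counts) and Pcdh17 (Gm32498, mean 116 counts).

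**Figure D2:**
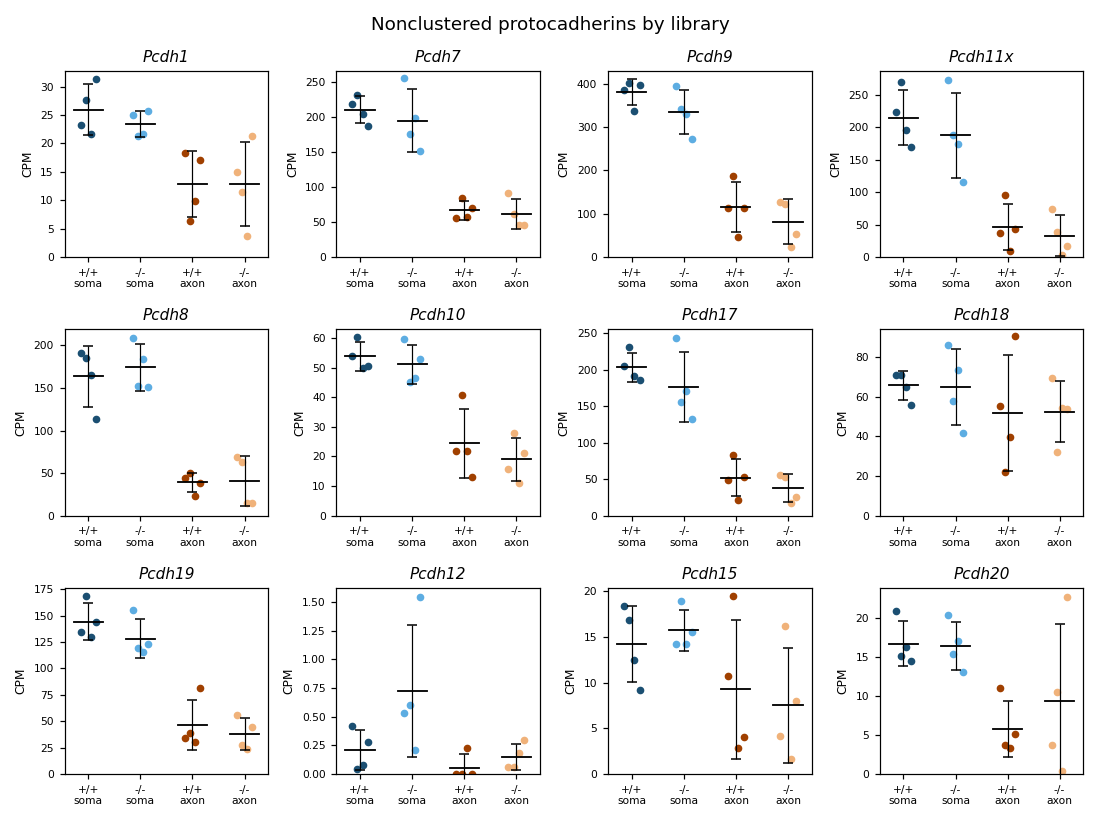
Level in CPM (vertical axis, from 0) of the 12 nonclustered protocadherins in the 4 libraries of each group (points), with the mean (line) and SD (bar). Pcdh7, Pcdh8, Pcdh9, Pcdh10, Pcdh17 and Pcdh19 sit lower in axons than in somata, and the Pcdh18 groups overlap.

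Per kilobase of exon, Pcdh8 had the highest level among the nonclustered genes in +/+ somata at 40.9 CPM per kb, followed by Pcdh17 at 19.4, Pcdh7 at 15.96, Pcdh19 at 13.9, Pcdh11x at 13.6 and Pcdh18 at 12.2 CPM per kb. Pcdh10 was at 4.56, Pcdh20 at 3.09, Pcdh1 at 2.56 and Pcdh9 at 2.45 CPM per kb. Pcdh15 was at 0.518 and Pcdh12 at 0.0372 CPM per kb. The exon model of Pcdh9 holds 155391 bases, which lowers its value on this scale.

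The C-type genes, which are the last variable exons of their clusters and resemble each other more than the other clustered genes, did not move alike. Pcdhgc4, needed for neuron survival, had 263, 282, 231 and 287 CPM in +/+ somata. In +/+ axons it had 55.9, 47.9, 21.6 and 61.3 CPM. The compartments did not overlap, and it fell by 2.51 on the log2 scale (SE 0.39, adjusted p = 0.000159). Pcdhgc3, which promotes dendrite branching in cortical neurons, had 104, 94.8, 93.2 and 76.1 CPM in +/+ somata. In +/+ axons it had 115, 76.7, 78.9 and 113 CPM. These overlapped, with a log2 fold change of 0.06 (SE 0.20, adjusted p = 0.807) in +/+ and 0.18 (SE 0.20, adjusted p = 0.464) in Hnrnpr-/-. Pcdhgc5 was at 22.5 to 25.0 CPM and 13.1 to 22.5 CPM. Its log2 fold change was -0.48 (SE 0.20), and the adjusted p of 0.0486 no longer passed under 20 other settings, each culture as a block among them (0.0531). Among alpha genes, Pcdhac2 was the highest in both compartments of +/+, at 126 ± 13.3 CPM in +/+ somata and 24.0 ± 7.98 CPM in +/+ axons, and fell by 2.39 (SE 0.36, adjusted p = 0.000132). Pcdhac1 was the lowest alpha gene in +/+ somata, at 18.9 ± 2.05 CPM, and was at 4.87 ± 3.86 CPM in +/+ axons. Without the +/+ axonal library numbered 2, its log2 fold change was -2.63 in place of -1.95.

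**Figure D3:**
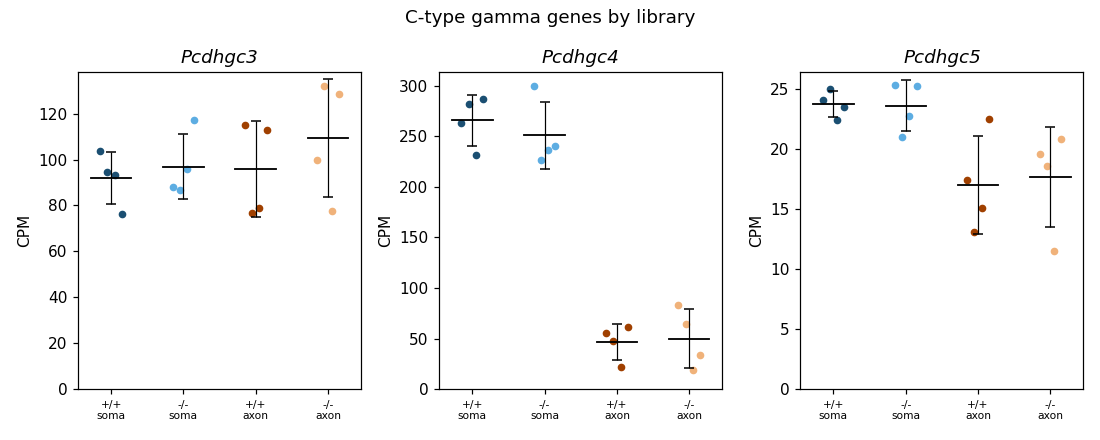
Level in CPM (vertical axis, from 0) of the 3 C-type gamma genes in the 4 libraries of each group (points), with the mean (line) and SD (bar). Pcdhgc4 is lower in axons than in somata, and the Pcdhgc3 groups overlap.

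In +/+ somata, the highest alpha genes after Pcdhac2 were Pcdha2, at 51.8 ± 8.31 CPM in +/+ somata and 9.91 ± 5.49 CPM in +/+ axons, and Pcdha3, at 51.1 ± 5.58 CPM and 8.45 ± 4.47 CPM. The highest gamma gene there after Pcdhgc4 and Pcdhgc3 was Pcdhga3, at 57.8 ± 3.99 CPM, with 24.0 ± 5.63 CPM in +/+ axons. In +/+ axons other alpha and gamma genes, such as Pcdha12 and Pcdhga7, were above Pcdha2 and Pcdhga3. The highest beta genes in +/+ somata were Pcdhb9, at 31.9 ± 4.23 CPM and 6.53 ± 5.82 CPM, Pcdhb7 at 30.0 ± 5.05 CPM and 8.26 ± 4.27 CPM, and Pcdhb17 at 26.5 ± 2.82 CPM and 14.6 ± 8.78 CPM. Pcdhb17 did not pass the threshold in +/+ (log2 fold change -0.86, SE 0.41, adjusted p = 0.0877), but did with each culture as a block (-1.06, adjusted p = 0.0246). Pcdhb22 was the tested beta gene with a positive value in +/+, a log2 fold change of 0.31 (SE 0.27, adjusted p = 0.334). Pcdhb1, which was not tested, had at most 18 counts in any library.

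The part of a cluster's counts that all its members have in common was estimated in each library from its lowest member, multiplied by the number of genes. For alpha it was 41.5 to 49.96% of the cluster's counts in +/+ somata and 39.1 to 68.9% in +/+ axons, which overlapped. For gamma it was 43.6 to 45.9% in +/+ somata and 55.6 to 64.4% in +/+ axons, which did not overlap. In Hnrnpr-/- it was 42.8 to 45.0% and 55.5 to 63.2%, also without overlap. Pcdhgc5 was the lowest gamma member in 10 of the 16 libraries, namely every somatodendritic library and the axonal library numbered 2 of each genotype. In the other axonal libraries it was Pcdhga9, Pcdhga6, Pcdhgb5 or Pcdhgb1. The compartments were thus mostly compared on floors from different genes. With the second lowest member in place of the lowest, the ranges were 51.4 to 59.8% and 56.1 to 64.8% in +/+, which overlapped, and 56.4 to 60.5% and 61.2 to 64.4% in Hnrnpr-/-, which did not. These shares are descriptions with no test.

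**Figure D4:**
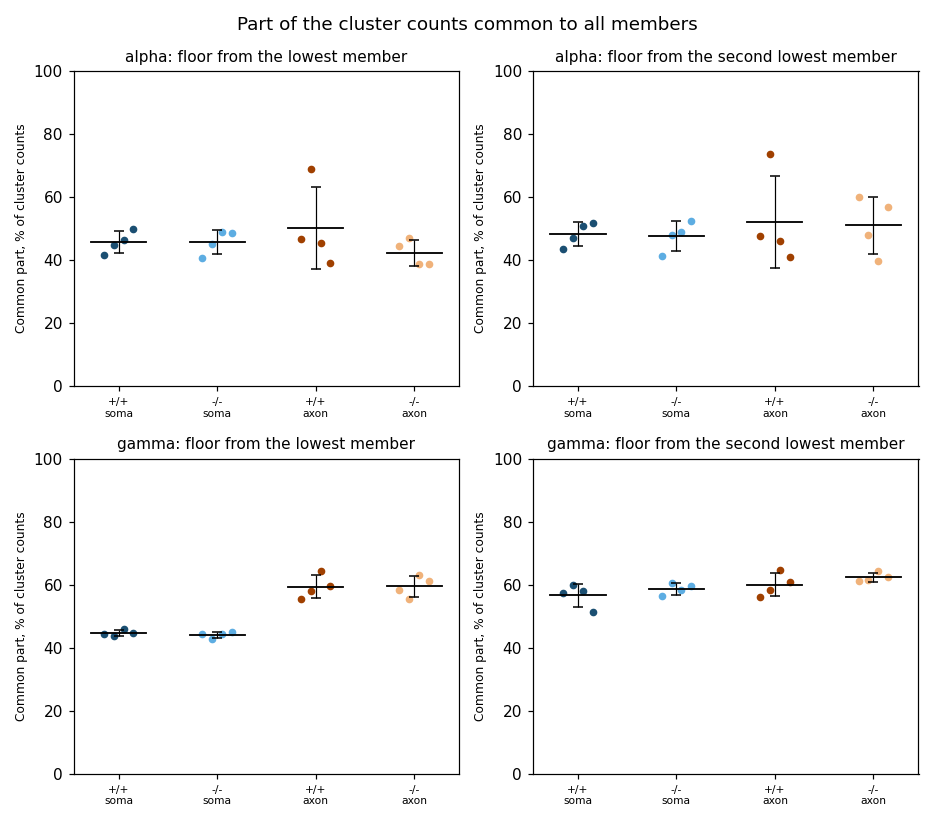
Estimated common part of the alpha (top) and gamma (bottom) counts, in percent (vertical axis, 0 to 100), per library (points) with mean (line) and SD (bar), from the lowest member (left) or the second lowest (right). The gamma compartments separate on the left in both genotypes, and on the right they overlap in +/+ and lie close together in Hnrnpr-/-.

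The remainder above that floor is what each gene holds beyond the lowest member. It can still include reads divided among some of the genes or places. In the +/+ somatodendritic library numbered 1 it was 374.87 counts for Pcdha1, not a whole number. The floor also holds any reads on the lowest member's own variable exon. Fitted on this remainder, a setting chosen after the data were seen, fewer gamma genes were lower in axons: 13 of 21 in +/+, in place of 20, and 15 in Hnrnpr-/-, in place of 19. For alpha it was 12 of 14 in each genotype, in place of 14. The median log2 fold change of gamma genes on the remainder was -1.37 in +/+ and -1.38 in Hnrnpr-/-, beside -0.89 and -0.84 before subtraction. For alpha genes it was -2.45 and -2.41, beside -2.16 and -2.31. Fewer genes were thus called, while the median falls were not smaller. In +/+ Pcdhga7, Pcdhga9, Pcdhga12, Pcdhgb4, Pcdhgb5, Pcdhgb7 and Pcdha8 did not pass the threshold on the remainder (adjusted p of 0.0585 to 0.305). Their log2 fold changes on it ran from -3.79 for Pcdha8 to -0.52 for Pcdhga7. Before subtraction Pcdha8 was at -2.04 and Pcdhga7 at -0.57, and only Pcdhga7 fell less on the remainder. The counts of lower gamma and alpha genes given above include reads that the cluster shares. These calls in +/+ were not made without them, where the SE of each of these genes was larger. For Pcdhga9 it was 1.27 in place of 0.24. The remainder has fewer counts, and Pcdha8, Pcdhga9 and Pcdhgb5 were themselves the floor in some libraries. Pcdhac1 and Pcdhgc5, the floor in most, have no usable value here, and the 1 gamma gene called higher on the remainder was Pcdhgc5. Pcdhgc4 held 37.5 to 42.8% of the gamma remainder in +/+ somata and 6.51 to 17.6% in +/+ axons, and Pcdhgc3 held 8.54 to 12.7% and 32.1 to 46.8%. The ratio of Pcdhgc3 to Pcdhgc4 in this remainder was 0.199 to 0.338 in +/+ somata and 0.229 to 0.426 in Hnrnpr-/- somata. It was 1.83 to 7.18 in +/+ axons and 1.26 to 8.84 in Hnrnpr-/- axons. The order of the pair was thus opposite in the compartments in all 16 libraries. This ratio was chosen after its values were seen and has no test.

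The comparison of genotypes asked whether protocadherin levels depend on hnRNP R. In the fit of all 16 libraries 0 members passed an adjusted p of 0.05 in somata, in axons or in the difference between the compartments, where 0.00501%, 0.01% and 0% of all genes did. DESeq2 gave 0 in each as well, and so did a fit of the difference with each culture as a block. The alpha sum differed by -0.04 (SE 0.50) in somata and 0.01 (SE 0.50) in axons on the log2 scale, and the gamma sum by 0.00 (SE 0.20) and 0.08 (SE 0.20). This fit shares 1 estimate of spread between compartments that differ in it, with a common dispersion of 0.0535 in somata and 0.303 in axons. In it 0.601% of all genes fell under an unadjusted p of 0.05 in somata and 3.88% in axons. On simulated data with 1 spread for all genes in each compartment, this fit was too strict for genotype in somata and too loose in axons. That simulation held no difference in spread between genes, so its result may not carry over to these data.

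Each compartment was therefore also fitted alone. In somata 0 of 67 members passed an adjusted p of 0.05 and 0 an unadjusted p of 0.05, where 0.00557% and 2.62% of all genes did. Their log2 differences ran from -0.56 to 0.24, with a median standard error of 0.14. In axons 0 of 66 members passed either, where 0.00528% and 0.723% of all genes did. There the log2 differences ran from -1.19 to 0.87, with a median standard error of 0.76 for alpha, 0.66 for beta, 0.27 for gamma and 0.53 for nonclustered genes. The axonal comparison was thus less precise for alpha and beta genes than for gamma genes. With only 0.723% of all genes under the unadjusted threshold there, 0 of 66 members says little about dependence on hnRNP R in axons.

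In the fit of all libraries, 3 of the 68 members, all beta genes, fell under an unadjusted p of 0.05 in axons, near the 3.88% of all genes, and 0 in somata or in the difference (0.601% and 1.33% of all genes). In edgeR's test Pcdhb11 had a log2 difference of -1.03, Pcdhb17 of -1.17 and Pcdhb12 of 0.89, each with an adjusted p of 1. Leaving out 1 library moved these values to between -1.68 and -0.79 for Pcdhb11, -1.59 and -0.72 for Pcdhb17, and 0.59 and 1.15 for Pcdhb12. The Pcdhb11 value was -1.68 without the Hnrnpr-/- axonal library numbered 1. Pcdhb11 had 5.11, 7.17, 2.89 and 5.63 CPM in +/+ axons and 5.32, 1.93, 1.26 and 1.69 CPM in Hnrnpr-/- axons, which overlapped. In the fit of axons alone none of the 3 fell under an unadjusted p of 0.05.

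Genes that act with protocadherins were listed by role. Of 16 regulators of clustered protocadherin promoters, 3 were higher and 5 lower in +/+ axons, near or below the 30.1% higher and 27.4% lower of all genes. Rest, a repressor of neuronal genes, rose by 2.28 on the log2 scale (SE 0.26), and Dnmt3a, a DNA methyltransferase, fell by 1.31 (SE 0.15). Of 20 signalling partners, 6 were higher and 7 lower, again near those shares of all genes. Among subunits of the WAVE complex, Cyfip2 fell by 2.497 (SE 0.37) and Wasf1 by 1.25 (SE 0.36), while Cyfip1 rose by 0.95 (SE 0.19) and Wasf2 by 1.45 (SE 0.38). Of 31 other cadherins tested, 3 were higher and 18 lower, with a median log2 fold change of -1.27 beside 0.07 over all genes, of which 30.1% were higher and 27.4% lower. Fat1, a giant atypical cadherin, rose by 1.41 (SE 0.25), and Clstn1, a calsyntenin of axonal transport, fell by 2.40 (SE 0.38). In the genotype comparisons 0 genes of these lists passed the adjusted threshold.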

How the data were processed

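The authors trimmed single-end reads with Cutadapt, aligned them to GRCm39 with STAR 2.7.2b and deposited counts per gene from featureCounts 1.6.4, in which a read overlapping several genes or places was divided into fractions, so the values the authors deposited are estimated counts, not normalized. Counting was strand-specific, although the SMART-Seq v4 kit does not mark strand. Axonal RNA was used without a check of its quality and with more PCR cycles. Here counts were rounded, filtered with filterByExpr and scaled by TMM in edgeR 4.0.16 (R 4.3.3), leaving 19964 genes. The quasi-likelihood F-test was fitted on the 4 groups with Benjamini-Hochberg adjustment, two-sided, at 0.05. DESeq2 1.42.0, other scalings and filters, left-out libraries and fits of the compared groups alone were alternatives. The fits were tested on simulated data. Named genes were all nonclustered and C-type members, the 3 highest and the lowest of each cluster in +/+ somata, and members past an unadjusted 0.05 for genotype. The members and lists were chosen with earlier results of these data known. Within a genotype, deviations of same-numbered compartments correlated at 0.105 to 0.508, each library best with its own number, so numbers pair cultures there. Counting error and depth limit low genes such as Pcdh12.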

Additional observations from a re-analysis of the deposited data

Results flagged for a closer look

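Of 108 groups of 4 libraries examined, 7 held a library whose gap to the nearest other exceeded Dixon's critical value for groups of that size, and chance flags about 1 in 20. In the +/+ axonal library numbered 3 the summed beta level was 34.7 CPM, below 112 to 116 CPM in the others, and Pcdh12 was at 0.227 CPM where the others were at 0. Pcdh19 was at 81.5 CPM in the +/+ axonal library numbered 4, against 30.4 to 38.5 CPM. In the Hnrnpr-/- axonal library numbered 1, Pcdhb22 was at 10.2 CPM, against 4.47 to 5.30 CPM, and Pcdhb11 at 5.32 CPM, against 1.26 to 1.93 CPM. Pcdhac2 was at 141 CPM in the Hnrnpr-/- somatodendritic library numbered 1, against 102 to 106 CPM, and Pcdhb12 at 15.5 CPM in the one numbered 4, against 18.1 to 18.6 CPM.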

How the results depend on the processing

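The count of lower members in axons was 50 to 60 in +/+ and 52 to 60 in Hnrnpr-/- when each library was left out, and 27 and 28 with alpha and gamma each summed to 1 feature. With the replicate number as a block it was 61 and 63, and with each culture (genotype and number) as a block, which matches the pairing and was chosen after seeing the data, 60 and 61. The culture block added Pcdhb17 and Pcdhb19 (adjusted p = 0.0476) and lost Pcdhgc5 in +/+, added Pcdh1 and Pcdh15 in Hnrnpr-/-, and changed no other member's call. The alpha sum ranged from -2.56 to -1.90 and the gamma sum from -1.12 to -0.85 without a library. The counts past the adjusted threshold for genotype and for the difference between compartments were 0 (range 0 to 0) without each library. After the lowest member count was subtracted from alpha and gamma genes, a setting chosen after seeing the data, Pcdhac1 had a log2 fold change of 0.17 (adjusted p = 0.95) and Pcdhgc5 of 8.46 (adjusted p = 0.0172). By construction these genes are the floor, and so at 0, in most libraries. Pcdhgc5 was at 0 in every somatodendritic library but above it in most axonal ones, where other genes were the floor. Neither value measures a change. Pcdh20 passed the threshold under 6 settings, and Pcdh12 under 2, both without the +/+ axonal library numbered 3. For genotype in axons, 0 of 68 members fell under an unadjusted p of 0.05 without the +/+ axonal library numbered 2 (2.11% of all genes), 8 without the one numbered 3 (7.17%), 5 without Hnrnpr-/- 1 (6.78%), 7 without Hnrnpr-/- 3 (4.41%) and 9 without both numbered 3 (5.54%). Scaling by library totals moved the median of all genes in +/+ from 0.07 to 0.22, with 41.2% rather than 47.6% of called genes lower. Between genotypes, same-number correlations ran from -0.0458 to 0.677. Axonal libraries numbered 2 and 3 and somatodendritic ones numbered 3 matched their own number best and the others did not, and the labels name no batch that a number marks, so the genotype comparisons were not treated as paired.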

Other observations

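Pcdhgb8, a transcribed pseudogene within the gamma cluster and so no member here, had 9.98 to 12.4 CPM in +/+ somata and 4.11 to 8.29 CPM in +/+ axons.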
